A study of Homo sapiens with 20 samples.

Results

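The mRNAs of 8 genes that build and anchor the epithelial basement membrane were measured in A549 cells, a human non-small cell lung cancer line, after extracellular ATP (eATP) or TGF-β. The 8 genes were chosen by name out of 58825 genes in the table. The rule used no measured value, although earlier results of these data were known when it was set. They are the laminin α chains LAMA3 and LAMA5, the β chains LAMB1, LAMB2 and LAMB3, the γ chain LAMC1, and the collagens COL7A1 and COL17A1. Each symbol matched 1 row, and all 8 genes passed the filter on low values, as did 20094 genes in all. RNAseq libraries came from 5 groups of 4. These were untreated control cells, cells given 0.5 mM ATP for 2 h or for 6 h, and cells given 10 ng/mL TGF-β for 2 h or for 6 h. All groups were the 1 established line grown on culture plates, with no other cell type in the model. The labels give no collection time for the controls and do not state that the 4 replicates were cultured apart from each other. The p-values thus rest on differences among replicates that may be only technical.

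Laminins are cross-shaped secreted proteins of 1 α, 1 β and 1 γ chain, named by their chain numbers. LAMA3 and LAMB3 encode chains of laminin-332, the laminin of epithelial anchoring and of migrating epithelial cells. LAMA5, LAMB1, LAMB2 and LAMC1 encode chains of the laminins common to most basement membranes, including those of the lung. At the hemidesmosome, an anchoring junction, integrin α6β4 and the transmembrane collagen XVII (COL17A1) hold keratin filaments inside the cell to laminin-332 outside it. Collagen VII (COL7A1) forms the anchoring fibrils that tie the laminin layer to the tissue beneath.

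The gene counts of a library summed to between 56187614 and 75050437. SMAD7, a TGF-β target that encodes an inhibitor of the pathway, rose by 1.13 ± 0.11 log2 units (SE) with TGF-β at 2 h and by 1.66 ± 0.11 at 6 h. NR4A3, an immediate early gene, rose by 3.91 ± 0.41 with eATP at 2 h, and EGR1, another, fell by 4.69. Neither change was particular to eATP, as NR4A3 and EGR1 had log2(FC) of 2.21 and -2.41 with TGF-β at 2 h. SMAD7 had a log2(FC) of -0.79 with eATP at 2 h. With eATP at 6 h only EGR1 of these 3 genes was called, with a log2(FC) of -1.09. Both inducers thus had effects on the genes chosen as treatment checks. Epithelial keratins were abundant, and summed marker levels of that list lay between 1375 and 2507 FPKM. The alveolar markers SFTPB, SFTPC and NKX2-1 were each under 0.1 FPKM in every library, so the defining markers of type II pneumocytes were absent. Of 5 basal cell markers, KRT5 and DSG3 were under 0.1 FPKM throughout and KRT14 reached at most 0.123 FPKM, whereas TP63 ran from 0.35 to 1.76 FPKM and KRT15 from 0.579 to 1.93 FPKM. KRT15 rose by 0.80 log2 units with eATP at 6 h (edgeR adjusted p = 0.0202), the group in which LAMA3 and COL17A1 had their highest means, and its part in those values was not tested. Of 6 fibroblast markers, COL1A1 rose from 1.03 FPKM in controls to 16.3 FPKM with TGF-β at 6 h, while COL1A2, PDGFRB and DCN stayed under 0.1 FPKM in all libraries. The summed fibroblast list thus ran from 14.9 to 18.1 FPKM with TGF-β at 6 h against 1.22 to 1.60 FPKM in controls, nearly all of it COL1A1. Endothelial and leukocyte lists summed to at most 0.543 and 5.71 FPKM. Their markers VWF and PTPRC were under 0.1 FPKM in all libraries, whereas CDH5 ran from 0.0301 to 0.503 FPKM and CD14 from 1.15 to 5.47 FPKM. CDH5, the 1 endothelial marker tested, was called higher with eATP at 2 h (log2(FC) of 1.37). Of the 2 leukocyte markers tested, 1 was called higher with TGF-β at 2 h. Library replicate 1 of TGF-β at 2 h stood apart. The SD over genes of its log2 deviation from its group was 0.76, against 0.40 to 0.51 in the other 19 libraries, and that deviation correlated with gene length at r = -0.33 over 12399 genes. In this library LAMA3 lay 0.99 and LAMC1 0.79 log2 units lower than the mean of the other 3 (member deviations of -0.99 and -0.79), so results with it left out are given where the call differs.

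The levels of the 8 genes spanned more than 2 orders of magnitude, and the abundant chains were those of the common laminins. FPKM divides by transcript length and so allows levels of different genes to be compared. In control cells LAMB1 had a mean of 44.2 ± 2.58 FPKM (SD, n = 4) and LAMC1 had 38.1 ± 5.13 FPKM, with overlapping libraries. LAMA5 at 8.78 ± 1.38 FPKM, COL7A1 at 7.26 ± 0.55 FPKM and LAMB3 at 6.97 ± 0.49 FPKM came next, and neighbours in this order overlapped. LAMB2 at 4.40 ± 0.30 FPKM and LAMA3 at 1.11 ± 0.19 FPKM were each separated from their neighbours. COL17A1 was lowest, at 0.162 ± 0.055 FPKM and 53 to 126 counts per library. The order changed in its middle part. LAMB3 was in place 3 in the eATP groups and with TGF-β at 2 h, and with TGF-β at 6 h COL7A1 and LAMB3, which overlapped each other, stood above all libraries of LAMA5. In that group LAMC1 lay above LAMB1 without overlap.

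**Figure D1:**
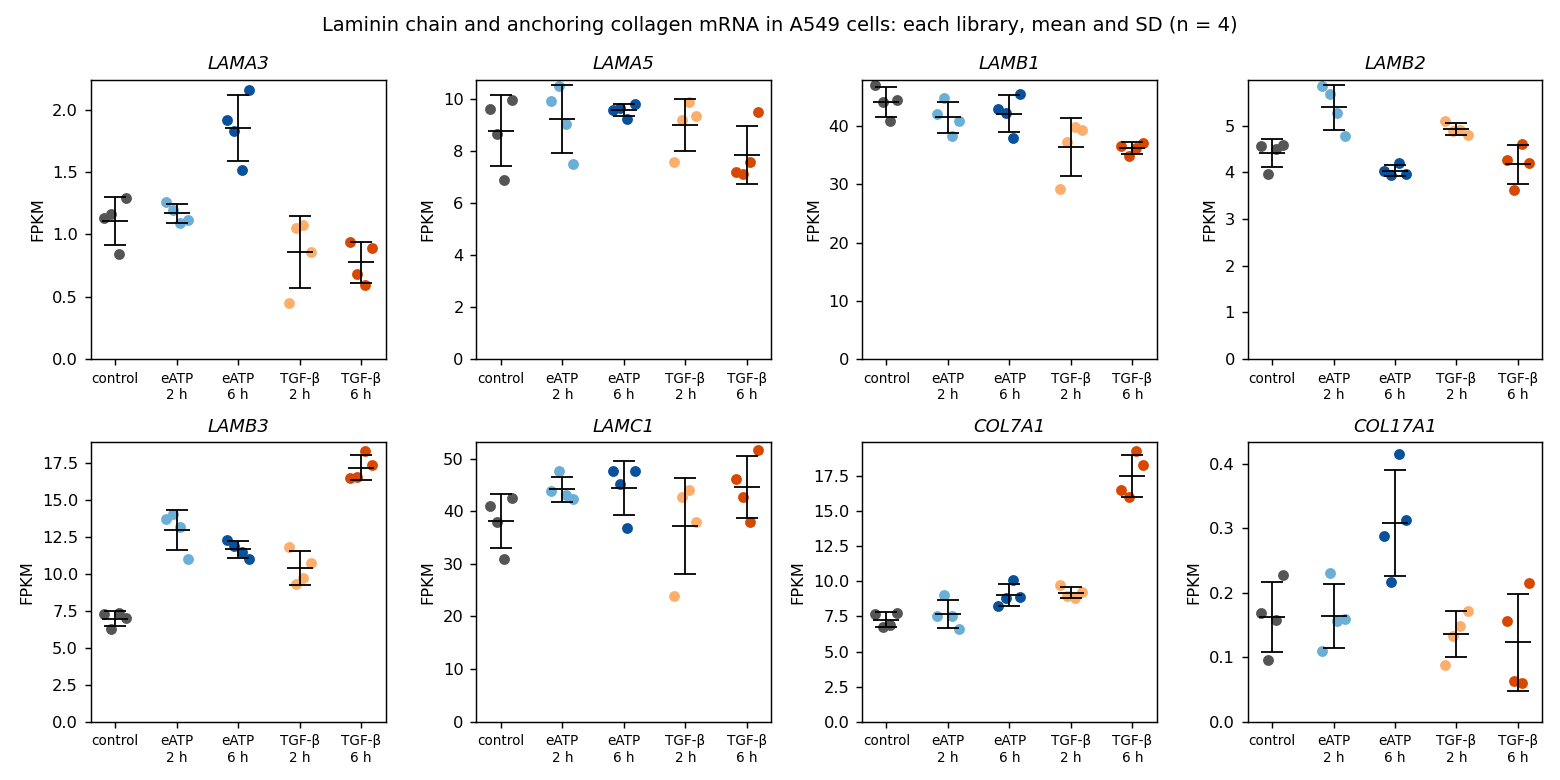
FPKM of the 8 genes (1 panel each, y axis from 0) in the 5 groups on the x axis, with each point a library and the bar the mean and SD of 4. LAMB3 was above the control libraries in all 4 treated groups, COL7A1 stood highest with TGF-β at 6 h at 17.5 FPKM, and LAMA3 and COL17A1 had their highest means with eATP at 6 h.

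Against control 4 of the 8 genes were called in at least 1 treatment, LAMB3, COL7A1 and LAMB2 upward and LAMB1 downward. The share of all genes called in at least 1 treatment was not computed. With TGF-β at 6 h alone, 3247 of the 20094 genes tested were called, and the number over all 4 treatments cannot be lower. The 4 of 8 genes thus have no matching share to be judged against. Calls were made at an adjusted p under 0.05 from edgeR's quasi-likelihood test over all genes. With eATP at 2 h, 2 of 8 genes rose (LAMB3 and LAMB2) and 0 fell, where 4.79% of all genes tested rose and 3.79% fell. After 6 h of eATP, LAMB3 rose alone and 0 genes fell, where 1.71% of all genes rose and 1.28% fell. With TGF-β at 2 h, LAMB3 and COL7A1 rose and LAMB1 fell, where 7.25% of all genes rose and 5.67% fell. After 6 h of TGF-β, LAMB3 and COL7A1 rose and 0 genes fell, where 8.4% of all genes rose and 7.76% fell. With 8 genes, 1 call makes a large difference to such shares. The median log2(FC) of the 8 genes was 0.10, 0.29, 0.02 and -0.04 in these 4 comparisons, beside medians of -0.01, -0.01, 0.02 and -0.01 over all genes. The 4 comparisons share the control libraries and are not independent of each other. In bulk RNA, a change in the number of expressing cells and a change in the RNA of each cell cannot be told apart.

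**Figure D2:**
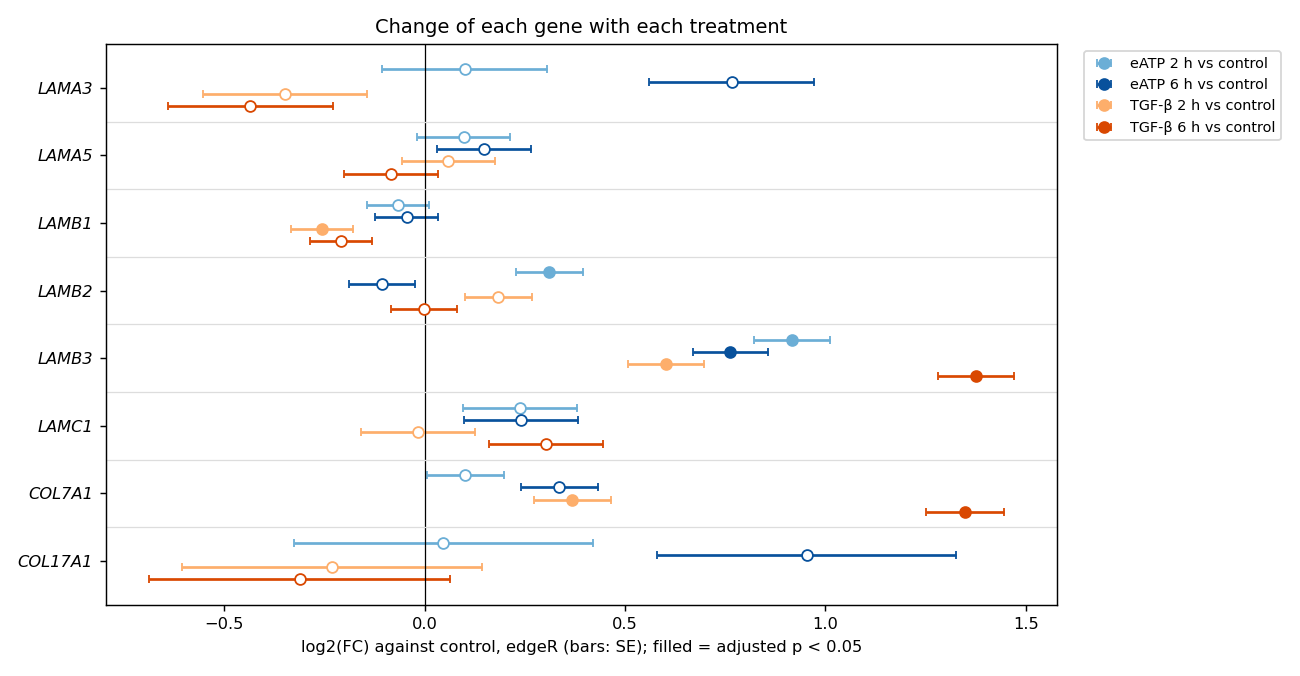
The log2(FC) against control of each gene (rows) for the 4 treatments (colours), with bars of 1 SE from edgeR and filled points for an adjusted p under 0.05. LAMB3 is filled in all 4 treatments, from 0.60 with TGF-β at 2 h to 1.38 with TGF-β at 6 h, and COL7A1 reaches 1.35 with TGF-β at 6 h.

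LAMB3 (ENSG00000196878), the β chain found in laminin-332, rose in all 4 treated groups, and most with TGF-β at 6 h. The gene lies at chr1:209614870-209652466 on the minus strand (GENCODE 29 on GRCh38). Control replicates 1 to 4 held 7.26, 6.27, 7.34 and 7.01 FPKM. With eATP at 2 h they held 13.7, 14.1, 13.1 and 11.0 FPKM, and at 6 h 12.3, 11.9, 11.5 and 11.0 FPKM. Every eATP library was above every control library, and the 2 times overlapped each other. With TGF-β at 2 h the values were 11.8, 9.27, 9.73 and 10.7 FPKM, and at 6 h 16.5, 16.6, 18.3 and 17.3 FPKM. The 6 h TGF-β libraries were above all other libraries. The log2(FC) against control was 0.92 ± 0.09 (SE) with eATP at 2 h (edgeR adjusted p = 2.13e-06) and 0.76 ± 0.09 at 6 h (edgeR adjusted p = 9.06e-05). It was 0.60 ± 0.09 with TGF-β at 2 h (edgeR adjusted p = 0.000192) and 1.38 ± 0.10 at 6 h (edgeR adjusted p = 5.01e-09), a fold of 2.59. All 4 calls held in each of the 28 alternative analyses.

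The time course of LAMB3 differed between the inducers. From 2 to 6 h its log2(FC) was 0.77 ± 0.09 with TGF-β (edgeR adjusted p = 1.91e-05) and -0.15 ± 0.09 with eATP (edgeR adjusted p = 0.362). The difference between these changes was 0.93 ± 0.13 log2 units (edgeR adjusted p = 0.000171). In this interaction 2 of the 8 genes, LAMB3 and COL7A1, had a larger change with TGF-β and 0 a smaller one, against 3.1% and 3.02% of all genes. At 6 h LAMB3 was 0.61 ± 0.09 log2 units higher with TGF-β than with eATP (edgeR adjusted p = 9.38e-05). At 2 h it was 0.31 ± 0.09 log2 units lower with TGF-β (edgeR adjusted p = 0.0419), where the libraries of the 2 groups overlapped. This last call was the only one among the 8 genes at 2 h, where 4.93% of all genes were higher and 4.16% lower with TGF-β. It held in 12 of 28 alternatives, with adjusted p between 0.00395 and 0.135, and was lost when eATP 2 h replicate 1, 2 or 3, TGF-β 2 h replicate 2, 3 or 4, control replicate 4, eATP 6 h replicate 1, 2 or 3 or any TGF-β 6 h library was left out.

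The DNA just before the transcription start is shown for LAMB3 because it was the gene that moved in every treatment. RefSeq gives LAMB3 more than 1 start, and starts 1 and 3 are printed as 250 bases upstream of each, 5′ to 3′ on the gene's strand (GRCh38.p14, chr1:209652426-209652675 and chr1:209651375-209651624, both minus). Capitals mark matches to TGANTCA, the AP-1 motif, searched on both strands.
LAMB3, upstream of start 1: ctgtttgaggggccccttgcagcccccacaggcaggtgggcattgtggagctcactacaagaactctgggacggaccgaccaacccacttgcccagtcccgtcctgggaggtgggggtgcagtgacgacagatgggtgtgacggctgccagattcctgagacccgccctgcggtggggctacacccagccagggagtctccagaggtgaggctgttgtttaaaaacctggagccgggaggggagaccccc
LAMB3, upstream of start 3: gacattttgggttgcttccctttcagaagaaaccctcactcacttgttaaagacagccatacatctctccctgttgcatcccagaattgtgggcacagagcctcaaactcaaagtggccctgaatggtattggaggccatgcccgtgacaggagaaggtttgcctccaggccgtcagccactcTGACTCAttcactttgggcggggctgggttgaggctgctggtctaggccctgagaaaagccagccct
The window of start 3 had 1 match, 67 to 61 bases upstream. Those of start 1 and of start 2, which is not printed, had none. Of 35116 RefSeq windows of the same length, 6.57% held such a match. The gene-level counts do not show which start was in use.

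COL7A1 (ENSG00000114270), which encodes the collagen of anchoring fibrils, rose with TGF-β and had the larger change at 6 h. The gene lies at chr3:48564073-48595267 on the minus strand. Control replicates 1 to 4 held 7.69, 6.72, 6.86 and 7.77 FPKM. TGF-β libraries held 9.75, 8.98, 8.85 and 9.22 FPKM at 2 h, and at 6 h 16.5, 16.0, 19.3 and 18.3 FPKM. All TGF-β libraries were above all control libraries, and the 6 h libraries were above those of 2 h. After eATP the values were 7.52, 9.04, 7.53 and 6.58 FPKM at 2 h, and at 6 h 8.22, 8.83, 10.1 and 8.92 FPKM. The eATP libraries overlapped the controls at 2 h and lay just above them at 6 h. The log2(FC) against control was 0.37 ± 0.10 with TGF-β at 2 h (edgeR adjusted p = 0.0148) and 1.35 ± 0.10 at 6 h (edgeR adjusted p = 9.32e-09), a fold of 2.55. The 2 h call was lost without control replicate 2, where the adjusted p was 0.0568. With eATP at 6 h the log2(FC) was 0.34 ± 0.10 and missed the threshold (edgeR adjusted p = 0.0719), and it passed in 3 of 28 alternatives, among them the one without TGF-β 2 h replicate 1 (log2(FC) of 0.34, edgeR adjusted p = 0.0394).

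COL7A1 also separated the inducers at 6 h, being 1.01 ± 0.10 log2 units higher with TGF-β than with eATP (edgeR adjusted p = 3.37e-07). In that comparison 4 of the 8 genes were called, COL7A1 and LAMB3 higher and LAMA3 and COL17A1 lower with TGF-β, where 8.97% of all genes were higher and 8.66% lower. From 2 to 6 h of TGF-β, COL7A1 rose by 0.98 ± 0.10 log2 units (edgeR adjusted p = 1.81e-06), and with LAMB3 it made 2 of 8 genes called, both higher, where 5.49% of all genes were higher and 6.58% lower. The change from 2 to 6 h was 0.75 ± 0.14 log2 units larger with TGF-β than with eATP (edgeR adjusted p = 0.00174). This difference was 0.61 and no longer called once a trend with gene length was removed from each library (edgeR adjusted p = 0.14), and it held in the other 27 alternatives. The upstream 250 bases of COL7A1 (chr3:48595330-48595579, minus strand) are shown because this gene had the largest rise with TGF-β beside LAMB3.
COL7A1, upstream of start 1: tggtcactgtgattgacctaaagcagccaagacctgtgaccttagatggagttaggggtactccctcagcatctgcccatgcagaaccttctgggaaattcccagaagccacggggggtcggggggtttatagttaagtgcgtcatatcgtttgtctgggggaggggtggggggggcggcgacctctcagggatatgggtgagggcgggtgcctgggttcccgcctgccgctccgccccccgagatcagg
It held no AP-1 match. It held 1 match to CAGAC or its reverse complement GTCTG, the core of a SMAD element, 97 to 93 bases upstream, as 38.0% of all windows held at least 1 on either strand. Such matches numbered 2 for LAMA3, 1 each for LAMB2 and LAMC1, and 0 for LAMA5, LAMB1, COL17A1 and each LAMB3 window.

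LAMA3 (ENSG00000053747), the α chain of laminin-332, had its highest level with eATP at 6 h and its lowest with TGF-β. The gene lies at chr18:23689443-23956222 on the plus strand. Control replicates 1 to 4 held 1.13, 1.17, 0.842 and 1.29 FPKM, on 1107 to 1486 counts. After 2 h of eATP the values were 1.26, 1.20, 1.09 and 1.12 FPKM, and at 6 h 1.92, 1.83, 1.52 and 2.16 FPKM. The 6 h eATP libraries were above all other libraries. After 2 h of TGF-β the values were 0.45, 1.05, 1.08 and 0.857 FPKM, and at 6 h 0.936, 0.678, 0.595 and 0.892 FPKM. Both TGF-β groups overlapped the controls. With eATP at 6 h the log2(FC) against control was 0.77 ± 0.21 and just missed the threshold (edgeR adjusted p = 0.0517). It was called in 10 of 28 alternatives, with adjusted p between 0.000251 and 0.158, and without TGF-β 2 h replicate 1 it was called (edgeR adjusted p = 0.00408). With TGF-β the log2(FC) was -0.35 ± 0.21 at 2 h (edgeR adjusted p = 0.324) and -0.43 ± 0.21 at 6 h (edgeR adjusted p = 0.184). The 6 h difference was called in 2 of 28 alternatives, with the length trend removed (-0.39, edgeR adjusted p = 0.0163) and without TGF-β 2 h replicate 1 (-0.45, edgeR adjusted p = 0.0373). The same 2 alternatives called the LAMA3 interaction, which was -0.75 log2 units (edgeR adjusted p = 0.168), at -0.81 (adjusted p = 0.00188) and -0.98 (adjusted p = 0.00691).

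The contrast between the inducers at 6 h was the firmest result for LAMA3, which was 1.20 ± 0.21 log2 units lower with TGF-β than with eATP (edgeR adjusted p = 0.000338, called in all 28 alternatives). LAMA3 rose by 0.67 ± 0.21 log2 units from 2 to 6 h of eATP (edgeR adjusted p = 0.0402), where LAMA3 was called higher and LAMB2 lower, against 6.01% of all genes higher and 6.57% lower. That call held in 16 of 28 alternatives, with adjusted p up to 0.117. It was lost when any eATP 2 h library, eATP 6 h replicate 1, 2 or 4, control replicate 1 or TGF-β 2 h replicate 4 was left out, and without the filter, with limma on log2(FPKM + 0.1) and with a replicate block. Long and short LAMA3 transcripts share exons, and gene-level values do not separate them. The start that RefSeq gives in the promoter table lies inside the annotated gene, and its upstream 250 bases (chr18:23872770-23873019, plus strand) are shown because they held 2 AP-1 matches, the most among the 8 genes.
LAMA3, upstream of start 1: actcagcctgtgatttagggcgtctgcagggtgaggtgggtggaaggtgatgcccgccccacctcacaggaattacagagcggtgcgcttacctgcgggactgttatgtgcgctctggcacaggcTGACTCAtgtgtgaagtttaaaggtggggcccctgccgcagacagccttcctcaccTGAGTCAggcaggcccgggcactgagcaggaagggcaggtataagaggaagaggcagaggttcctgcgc
The matches lay 125 to 119 and 69 to 63 bases upstream. They are letters in the reference and not measured binding, and no AP-1 match stood in the windows of LAMA5, LAMB1, LAMB2, LAMC1, COL7A1 or COL17A1.

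COL17A1 (ENSG00000065618), the transmembrane collagen of the hemidesmosome, was near the limit of detection and had its highest mean with eATP at 6 h. The gene lies at chr10:104031286-104085957 on the minus strand. With eATP at 6 h replicates 1 to 4 held 183, 135, 253 and 196 counts, or 0.287, 0.217, 0.414 and 0.312 FPKM. With TGF-β at 6 h they held 94, 38, 30 and 101 counts, or 0.156, 0.064, 0.059 and 0.214 FPKM. All TGF-β libraries at 6 h were below all eATP libraries at 6 h. The difference was -1.27 ± 0.38 log2 units (edgeR adjusted p = 0.0253). It was lost without eATP 6 h replicate 3, TGF-β 6 h replicate 2 or TGF-β 6 h replicate 3, where the highest adjusted p was 0.0826. Against control the log2(FC) with eATP at 6 h was 0.95 ± 0.37 (edgeR adjusted p = 0.238), and the libraries overlapped.

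LAMB2 (ENSG00000172037), a β chain of basement membrane laminins, was higher after 2 h of eATP, and at 6 h it was not called against control. The gene lies at chr3:49121114-49133118 on the minus strand. Control replicates 1 to 4 held 4.57, 3.96, 4.50 and 4.59 FPKM. Cells given eATP for 2 h held 5.86, 5.66, 5.26 and 4.77 FPKM, and at 6 h 4.03, 3.95, 4.19 and 3.96 FPKM. All eATP 2 h libraries were above all control libraries and above all eATP 6 h libraries. The log2(FC) was 0.31 ± 0.08 at 2 h against control (edgeR adjusted p = 0.0234), -0.11 ± 0.08 at 6 h (edgeR adjusted p = 0.701) and -0.42 ± 0.08 from 2 to 6 h of eATP (edgeR adjusted p = 0.00211). The call from 2 to 6 h held in all 28 alternatives and that at 2 h in 24. The latter was lost once the trend with gene length was removed, where the log2(FC) was 0.30 (edgeR adjusted p = 0.12), and without control replicate 2 or eATP 2 h replicate 1 or 2, where the adjusted p reached 0.0919. With TGF-β, LAMB2 had a log2(FC) of 0.18 ± 0.08 at 2 h (edgeR adjusted p = 0.174) and 0.00 ± 0.08 at 6 h (edgeR adjusted p = 0.994). The TGF-β 2 h libraries, at 4.79 to 5.10 FPKM, were also above all control libraries and above all TGF-β 6 h libraries. At 2 h TGF-β and eATP did not differ by a call (log2(FC) of -0.13, edgeR adjusted p = 0.412). The interaction was not called either (0.23, edgeR adjusted p = 0.349), so the rise at 2 h was not shown to be particular to eATP.

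LAMB1 (ENSG00000091136), the β chain of the most widespread laminins with the highest mean of the 8 genes in controls, was the one gene that fell against control. The gene lies at chr7:107923799-108003255 on the minus strand. Control replicates 1 to 4 held 47.1, 44.2, 40.8 and 44.5 FPKM. TGF-β at 2 h gave 29.1, 37.2, 39.8 and 39.4 FPKM, and at 6 h 36.6, 34.9, 36.2 and 37.2 FPKM. All TGF-β libraries were below all control libraries. The log2(FC) was -0.26 ± 0.08 at 2 h (edgeR adjusted p = 0.036) and -0.21 ± 0.08 at 6 h (edgeR adjusted p = 0.0818). At 6 h the difference was called in 4 of 28 alternatives, among them the one without TGF-β 2 h replicate 1 (-0.22, edgeR adjusted p = 0.0089). That alternative also called LAMB1 lower with TGF-β than with eATP at 6 h (-0.18, edgeR adjusted p = 0.0268, against 0.181 with all libraries). The 2 h call held in 20 of 28 alternatives, and without the library that stood apart, TGF-β 2 h replicate 1, the log2(FC) was -0.18 (edgeR adjusted p = 0.0756). The other losses were without the filter, with limma on log2(FPKM + 0.1), with a replicate block, and without control replicate 1, 2 or 4 or TGF-β 2 h replicate 2, with adjusted p up to 0.128. With eATP the LAMB1 log2(FC) was -0.07 ± 0.08 at 2 h and -0.05 ± 0.08 at 6 h. An exon of LAMB1 overlaps DLD on the opposite strand, which had 10384 to 16845 counts per library against 18500 to 33491 for LAMB1, and the sources used here do not say whether counting used strand.

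LAMC1 (ENSG00000135862), the γ chain shared by most laminins, and LAMA5 (ENSG00000130702), the α chain that prevails in adult basement membranes, were called by edgeR in 0 of the 9 comparisons. LAMC1 lies at chr1:183023460-183145592 on the plus strand and LAMA5 at chr20:62307955-62367312 on the minus strand. At an unadjusted p under 0.05 LAMC1 passed in 2 of them and LAMA5 in 0, and DESeq2 called neither gene in any of them. The group means of LAMC1 were 38.1 ± 5.13 FPKM in controls, 44.2 ± 2.36 and 44.3 ± 5.13 FPKM with eATP at 2 and 6 h, and 37.2 ± 9.16 and 44.6 ± 5.83 FPKM with TGF-β at 2 and 6 h. The large SD with TGF-β at 2 h came with 24.0 FPKM in replicate 1 against 37.9 to 44.0 FPKM in the others. Its log2(FC) with TGF-β at 6 h was 0.30 ± 0.14 (edgeR adjusted p = 0.179), and 0.36 and called once the trend with gene length was removed (edgeR adjusted p = 0.00135). LAMA5 means lay between 7.85 ± 1.11 FPKM with TGF-β at 6 h and 9.57 ± 0.24 FPKM with eATP at 6 h, and every treated group overlapped the controls. An exon of LAMA5 overlaps ADRM1 on the opposite strand, with 4933 to 8496 counts per library against 7512 to 13135 for LAMA5.

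Among other laminin chain genes, LAMA1, LAMA2 and LAMC3 were too low to test, and LAMA4 was tested and called in none of the 4 treatments.

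The shares of LAMB3 and LAMA3 among the mRNAs of their own chain class were computed from summed FPKM and is given without a test. LAMB3 made up 12.6 ± 1.01% of β chain mRNA (LAMB1, LAMB2 and LAMB3) in controls, 21.7 ± 1.58% and 20.2 ± 1.42% with eATP at 2 and 6 h, and 20.3 ± 3.65% and 29.8 ± 0.92% with TGF-β at 2 and 6 h. From counts in place of FPKM, with no division by length, these 5 shares were 7.75%, 13.9%, 12.9%, 13.0% and 19.9%. In FPKM, TGF-β 2 h replicate 1, the library that stood apart, had a LAMB3 share of 25.6%, against 17.9 to 19.5% in the others of its group. The α chain share moved otherwise. LAMA3 made up 11.2 ± 0.60% of LAMA3 and LAMA5 in controls, and 11.3 ± 1.18% and 16.2 ± 1.64% with eATP at 2 and 6 h. With TGF-β at 2 and 6 h its share was 8.53 ± 2.09% and 9.02 ± 1.79%, with 5.62% in replicate 1 at 2 h. The summed α level stayed between 8.62 and 11.4 FPKM and the summed β level between 51.7 and 59.8 FPKM over the group means. LAMA3 was below LAMB3 in every library.

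**Figure D3:**
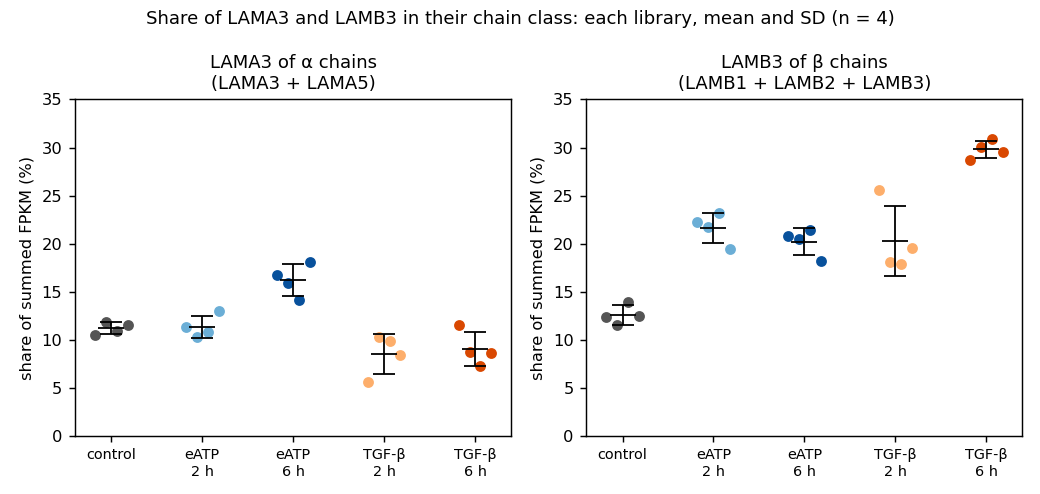
Share in percent (y axis) of LAMA3 and LAMB3 in the summed FPKM of their chain class (1 panel each) for the 5 groups, with points for libraries and bars for mean and SD of 4. The LAMB3 share is highest with TGF-β at 6 h, at 29.8%, and the LAMA3 share is highest with eATP at 6 h, at 16.2%.

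Of 7 hemidesmosome genes, 5 were tested, since the keratins KRT5 and KRT14 were too low, and 1, 1, 1 and 2 of them were called with eATP at 2 and 6 h and TGF-β at 2 and 6 h, all higher. ITGB4, the β4 integrin subunit that binds laminin-332, rose with eATP at 2 h and with TGF-β at both times. Its controls ranged from 8.51 to 10.6 FPKM, and TGF-β at 6 h gave 20.9, 19.3, 20.8 and 24.3 FPKM in replicates 1 to 4, without overlap. The log2(FC) of ITGB4 was 0.37 ± 0.11 with eATP at 2 h (edgeR adjusted p = 0.044, called in 16 of 28 alternatives and lost when any eATP 2 h library was left out, with p up to 0.135), 0.92 ± 0.11 with TGF-β at 2 h (edgeR adjusted p = 9.99e-06) and 1.21 ± 0.11 at 6 h (edgeR adjusted p = 1.86e-07). PLEC, which encodes the keratin linker plectin, rose at 6 h by 0.74 ± 0.15 log2 units with eATP and by 0.59 ± 0.15 with TGF-β. ITGA6, DST and CD151 were called in none of the 4 treatments. The median log2(FC) of the 5 genes tested was 0.31, 0.24, 0.08 and 0.29 with eATP at 2 and 6 h and TGF-β at 2 and 6 h. Of all genes tested 4.79%, 1.71%, 7.25% and 8.4% were called higher in these 4 comparisons.

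Among 17 basement membrane partners of laminin, of which 14 were tested, the type IV collagens COL4A1 and COL4A2 had the largest rises among the genes called, both with TGF-β. COL15A1, at most 0.213 FPKM in any library, had a log2(FC) of 1.84 with TGF-β at 6 h and was not called (edgeR adjusted p = 0.133). COL4A1 rose by 0.62 ± 0.19 log2 units at 2 h and 2.02 ± 0.19 at 6 h, and COL4A2 by 1.27 ± 0.14 at 6 h. The COL4A1 call at 2 h was lost when any control library, or TGF-β 2 h replicate 2, 3 or 4, was left out, with adjusted p up to 0.0995. NID2, a nidogen that links laminin to type IV collagen, moved in opposite directions with the inducers, having a log2(FC) of 1.00 ± 0.19 with eATP at 6 h (edgeR adjusted p = 0.00471) and -1.19 ± 0.19 with TGF-β at 6 h (edgeR adjusted p = 0.000144). NTN4, a laminin-related netrin, fell by 0.92 log2 units with TGF-β at 6 h, a call lost without control replicate 1, 3 or 4, with adjusted p up to 0.0786. With eATP at 2 h edgeR called 0 of the 14 genes and DESeq2 0, and 1 had an unadjusted p under 0.05. Of all genes tested, 4.79% were called higher and 3.79% lower in that comparison. NTN4 and COL4A1, the most abundant of the list by the mean over all 20 libraries, then had log2(FC) of 0.42 and 0.09. The list had 1, 1 and 2 genes called higher and 0, 0 and 2 lower with eATP at 6 h, TGF-β at 2 h and TGF-β at 6 h, with medians of 0.04, 0.05 and 0.01 log2 units. Among all genes tested 1.71%, 7.25% and 8.4% were called higher and 1.28%, 5.67% and 7.76% lower in these 3 comparisons.

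Of 9 laminin receptor genes, all tested, SDC4 rose in all 4 treated groups. This gene encodes syndecan 4, a heparan sulphate proteoglycan, and its log2(FC) was 1.55 ± 0.08 and 0.56 ± 0.08 with eATP and 0.88 ± 0.08 and 1.07 ± 0.08 with TGF-β at 2 and 6 h. SDC1, another syndecan, rose by 0.54 ± 0.11 and 0.82 ± 0.11 log2 units with TGF-β. ITGA2, an α integrin subunit, rose by 1.64 ± 0.42 with eATP at 2 h and 1.60 ± 0.42 with TGF-β at 6 h, and the first call was lost without control replicate 1 or eATP 2 h replicate 3, with adjusted p up to 0.08. ITGA3, whose product with β1 is a main laminin-332 receptor, rose by 0.42 ± 0.09 with eATP at 6 h, and ITGA7 by 1.07 ± 0.20 and 0.70 ± 0.20 with TGF-β. The ITGA3 call was lost without control replicate 2 or 3 or eATP 6 h replicate 4, with adjusted p up to 0.0604, and the second ITGA7 call without control replicate 2 or 3 or TGF-β 6 h replicate 1 or 3, with adjusted p up to 0.0788. DAG1, the dystroglycan gene, named here after its values were seen, had log2(FC) of -1.70, -1.71, -2.36 and -1.82 with eATP at 2 and 6 h and TGF-β at 2 and 6 h and was not called in any (edgeR adjusted p from 0.0568 to 0.334). Its controls ran from 1.04 to 28.2 FPKM, with the highest value in replicate 2. The list had 2, 2, 3 and 4 genes called higher and 0 lower in the 4 treatments, and medians of 0.21, 0.03, 0.21 and 0.26 log2 units. Over all genes tested 4.79%, 1.71%, 7.25% and 8.4% were called higher and 3.79%, 1.28%, 5.67% and 7.76% lower.

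Of 11 genes that process or anchor this matrix, 10 were tested, and all calls against control were with TGF-β. These were 2 higher and 1 lower at 2 h, and 3 higher and 1 lower at 6 h. MMP2, a gelatinase that cleaves type IV collagen, rose by 1.28 ± 0.19 log2 units at 2 h and 2.64 ± 0.19 at 6 h. BMP1, the protease that processes laminin-332 and procollagen VII, rose by 0.38 ± 0.08 and 0.54 ± 0.08, whereas its relative TLL1 fell, with a log2(FC) of -0.76 ± 0.21 and -0.69 ± 0.21. FERMT1, the integrin activator kindlin 1, rose by 1.31 ± 0.42 with TGF-β at 6 h. Leaving out libraries lost the TLL1 calls (control replicate 1 at both times, TGF-β 2 h replicate 4 at 2 h, control replicates 2 and 4 and TGF-β 6 h replicate 2 at 6 h, adjusted p up to 0.0774) and the FERMT1 call (any control library, TGF-β 6 h replicate 1 or 2, adjusted p up to 0.135). With eATP at 2 h and at 6 h edgeR called 0 of the 10, DESeq2 called 0, and 0 had an unadjusted p under 0.05. The most abundant of them, ADAM9 and COLGALT1, had log2(FC) of 0.23 and -0.07 with eATP at 2 h and 0.15 and 0.16 at 6 h. Of all genes tested, 4.79% and 1.71% were called higher and 3.79% and 1.28% lower with eATP at 2 and 6 h. With 10 genes, 0 calls with eATP is near these shares. With TGF-β at 2 and 6 h the shares were 7.25% and 8.4% higher and 5.67% and 7.76% lower.

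**Figure D4:**
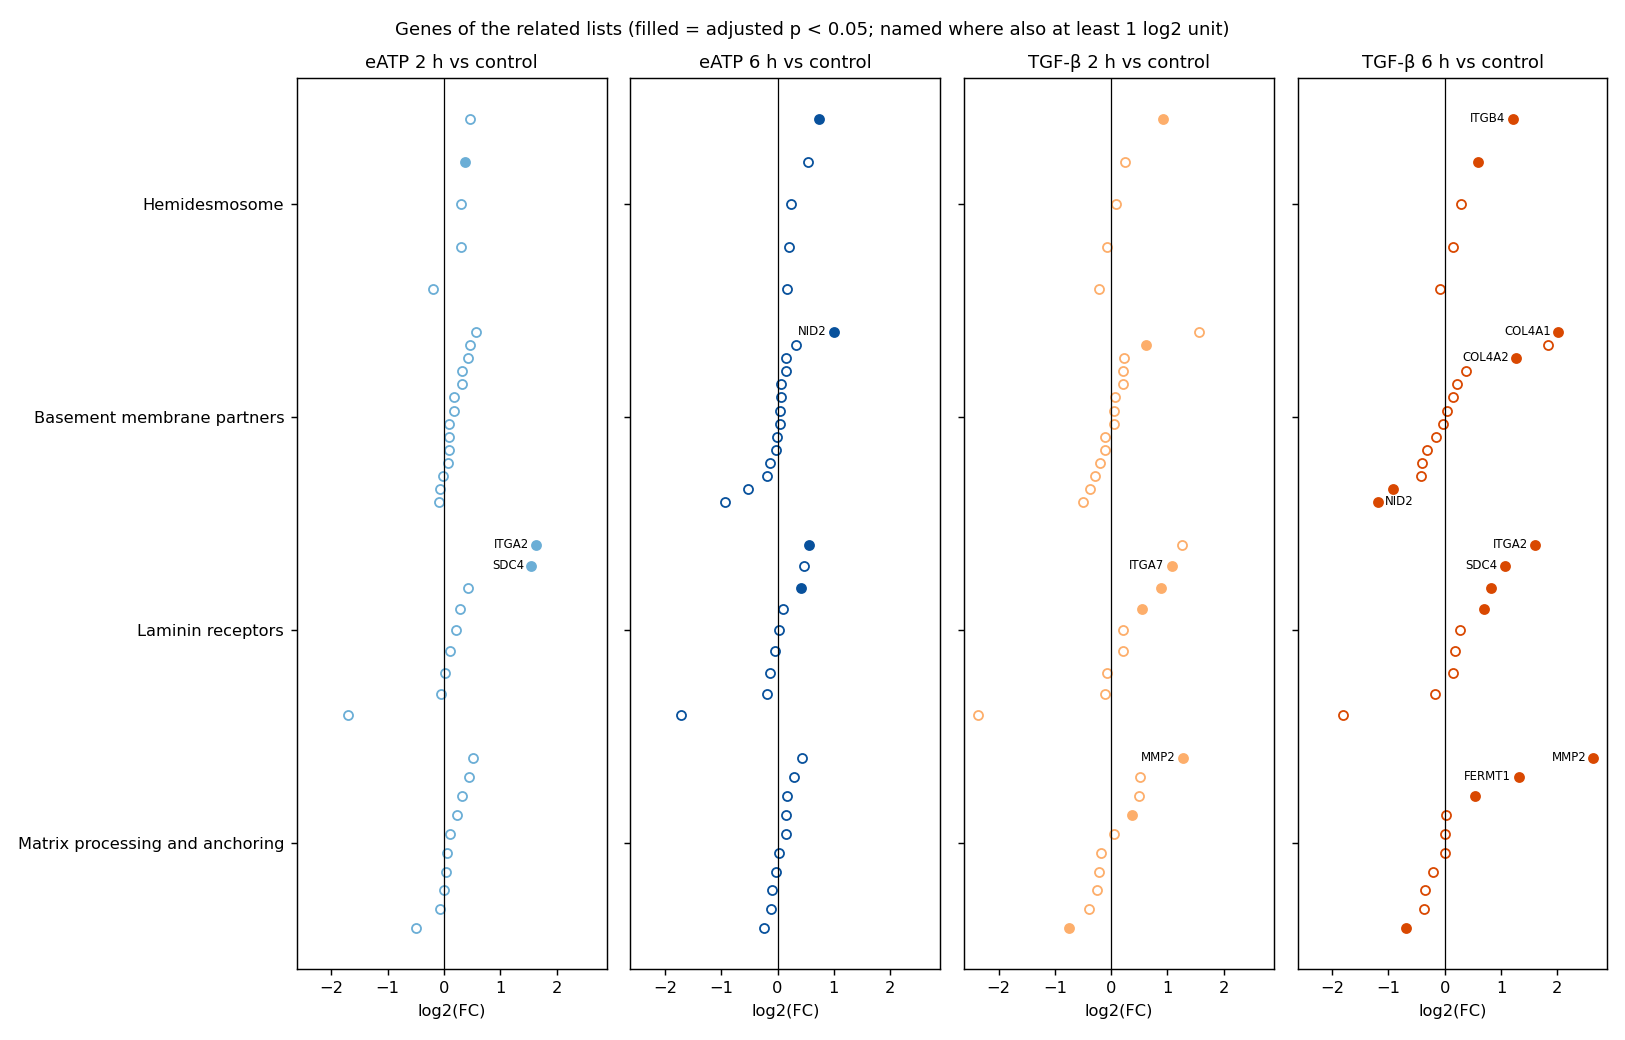
The log2(FC) against control (x axis) of the tested genes in 4 related lists (rows) for the 4 treatments (panels), with 1 point a gene, spread vertically by value and filled for an adjusted p under 0.05. MMP2 at 2.64 and COL4A1 at 2.02 lie farthest right, all with TGF-β at 6 h, and NID2 lies to the right with eATP at 6 h and to the left with TGF-β at 6 h.

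The pattern of each gene over the 20 libraries was compared with 11563 expressed genes by Pearson's r of log2(FPKM + 0.1). These libraries share groups and depth, and the coefficients are a description. LAMB3 was most like MMP10, which encodes the matrix protease stromelysin 2 (r = 0.94), and CSF2, which encodes the cytokine GM-CSF (r = 0.93). COL7A1 was most like PXN, which encodes the focal adhesion protein paxillin (r = 0.95), and KRT7-AS (r = 0.94), annotated antisense to KRT7. LAMA3 was most like LPIN1 (r = 0.97) and TXLNG (r = 0.96), and LAMC1 was most like CBL and JAK1 (both r = 0.97). LAMB1 had r = 0.92 with TMEM209. LAMB2 was most like FCGBP (r = 0.88) and VAMP2 (r = 0.85). LAMA5 was most like AGRN, the heparan sulphate proteoglycan agrin of basement membranes (r = 0.86), and ANO5 (r = 0.84), and COL17A1 was most like FNBP1 (r = 0.83) and POLR3E (r = 0.82). Among the 8 genes themselves, LAMB3 and COL7A1 had r = 0.76 over the 20 libraries, as did LAMA3 and COL17A1, whereas LAMA3 and LAMB3 had r = -0.24. LAMA3 also had r = 0.75 with LAMB1, 0.64 with LAMA5 and 0.60 with LAMC1, and r = -0.22 with LAMB2 and -0.44 with COL7A1.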

How the data were processed

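RNAseq of polyA RNA (a stranded TruSeq library) was done by the authors on A549 cells. Per gene and library, 1 table deposited by the authors holds a read count as well as an FPKM level. The processing notes name HISAT2, StringTie and edgeR, while no source used here gives their versions, the genome build or the use of strand in counting. In the deposited FPKM columns a value of 1e-04 stands where the estimate was 0. The paper states fewer replicates than the labels, and all 4 labelled libraries per group were used. All columns mapped to a sample, and no 2 libraries were identical. The 8 genes and all gene lists were chosen with earlier results of these data known, and "members" below means these 8 genes.

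Genes that reached 0.1 FPKM in 4 or more of the 20 libraries were tested on the counts as deposited with edgeR 4.0.16 in R 4.3.3 (TMM, quasi-likelihood test, 1 mean per group, two-sided, Benjamini-Hochberg over all genes tested). The 9 comparisons were each treatment against control, 6 h against 2 h within an inducer, TGF-β against eATP at each time, and the difference between the changes from 2 to 6 h. A gene was called at an adjusted p under 0.05. The procedure was tested on simulated data. Alternatives (28 for each comparison) were no filter, a filter of 1 FPKM, DESeq2 1.42.0 size factors or its test, limma 3.58.1 on log2(FPKM + 0.1) or log2(FPKM + 1), a replicate block, removal of a trend with transcript length, and each library left out. From each list the text names up to 4 genes with the largest log2(FC) among those called against control, or up to 2 most abundant genes where none was called, and for each member the 2 genes of highest Pearson's r with a mean of at least 1 FPKM. The alternatives for the listed genes were chosen after seeing the data. Upstream sequences are from RefSeq (GRCh38.p14), and gene positions from GENCODE 29, by gene ID. Some genes that these rules name are not reported here. At these depths COL17A1, with 30 to 253 counts per library, had the fewest counts of the members. The part of counting error in its spread was not tested.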

Additional observations from a re-analysis of the deposited data

Results flagged for a closer look

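One control library of LAMB2 lay far from the others, at 3.96 FPKM against 4.50 to 4.59 FPKM in the other 3. The gap to its neighbour was large for the range of the group by Dixon's test for 4 samples, and 40 groups were looked at, of which chance gives about 1 in 20. Leaving this library out, control replicate 2, ended the LAMB2 call with eATP at 2 h (log2(FC) of 0.26, edgeR adjusted p = 0.0919).

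The change from 2 to 6 h differed between the inducers for 2 of the 8 genes by the interaction term of the edgeR fit. The change of LAMB3 was 0.93 log2 units larger with TGF-β than with eATP (edgeR adjusted p = 0.000171), and all 4 TGF-β libraries at 6 h were above all 4 at 2 h. The change of COL7A1 was 0.75 log2 units larger with TGF-β (edgeR adjusted p = 0.00174), and again all 4 TGF-β libraries at 6 h were above all 4 at 2 h. With the length trend removed the difference for COL7A1 was 0.61 (adjusted p = 0.14).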

How the results depend on the processing

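The log2(FC) of LAMB3 in all 4 treatments and of COL7A1 with TGF-β at 6 h kept their direction and their call under each of the 28 alternatives. Counts of members called moved as follows. For eATP at 2 h it was 2, and 1 with the length trend removed (1 to 2 with a library left out). For eATP at 6 h it was 1, and 2 with a filter of 1 FPKM, with DESeq2 size factors, with limma on log2(FPKM + 1) and with the length trend removed, and 3 with the DESeq2 test (1 to 3 with a library left out). For TGF-β at 6 h it was 2, and 4 with the length trend removed (2 to 4 with a library left out). For TGF-β at 2 h it was 3 (1 to 3 with a library left out). From 2 to 6 h of eATP it was 2, and 1 without the filter, with limma on log2(FPKM + 0.1) and with a replicate block (1 to 2 with a library left out). For TGF-β against eATP at 2 h it was 1, and 0 without the filter and with the length trend removed (0 to 1 with a library left out). All genes called with eATP at 6 h numbered 600 in the main analysis, 1072 with the DESeq2 test and between 397 (eATP 6 h replicate 4 left out) and 1022 (TGF-β 2 h replicate 1 left out). With a library left out, the other totals over all genes moved too. They ran from 1324 to 2508 with eATP at 2 h, from 1994 to 2702 with TGF-β at 2 h and from 2686 to 4215 with TGF-β at 6 h. From 2 to 6 h of eATP the total ran from 1997 to 3425, and for TGF-β against eATP at 2 h from 1468 to 1864. The cause of these moves was not tested.

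Among the 8 genes, directions that turned belonged to comparisons with no call, and most of these values were near 0. With DESeq2 size factors, LAMB2 with TGF-β at 6 h had 0.000489. With a filter of 1 FPKM, LAMC1 had 0.00201 with TGF-β at 2 h and -0.016 from 2 to 6 h of eATP. With limma on log2(FPKM + 0.1) and on log2(FPKM + 1), LAMC1 from 2 to 6 h of eATP had -0.00192 and -0.00175, and the LAMB1 interaction -0.018 and -0.018. With the length trend removed, LAMC1 with TGF-β at 2 h had 0.054, LAMB2 with TGF-β at 6 h 0.047, LAMA5 for TGF-β against eATP at 2 h 0.14 and the LAMB1 interaction -0.012. With a replicate block, LAMC1 from 2 to 6 h of eATP had -0.00152. With a library left out, the log2(FC) with eATP at 2 h ran from -0.0031 to 0.18 for LAMA3 and from -0.16 to 0.25 for COL17A1. With eATP at 6 h it ran from -0.083 to 0.012 for LAMB1. With TGF-β at 2 h it ran from -0.033 to 0.12 for LAMA5 and from -0.10 to 0.13 for LAMC1. With TGF-β at 6 h it ran from -0.071 to 0.059 for LAMB2. From 2 to 6 h of eATP it ran from -0.017 to 0.075 for LAMB1, from -0.037 to 0.12 for LAMA5 and from -0.033 to 0.088 for LAMC1. From 2 to 6 h of TGF-β it ran from -0.31 to 0.036 for LAMA3, from -0.46 to 0.13 for COL17A1 and from -0.047 to 0.088 for LAMB1. For TGF-β against eATP it ran from -0.13 to 0.029 for LAMA5 at 2 h and from -0.039 to 0.10 for LAMC1 at 6 h, and for the LAMB1 interaction from -0.074 to 0.066.

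Same-numbered libraries did not deviate together. The correlation of their deviations was over 0.1 in 5 of 40 pairs of libraries (range -0.25 to 0.18), and the numbers were not taken as pairs. With the replicate number as a block, LAMB1 with TGF-β at 2 h had a log2(FC) of -0.26 and an adjusted p of 0.0545, and LAMA3 from 2 to 6 h of eATP had 0.66 and 0.062. COL17A1 gave no value with the filter of 1 FPKM.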
